A study of Mus musculus with 6 samples.

Results

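Elastic fibres give the lung its recoil, and the genes described here encode their parts. The set lists 10 genes: elastin (Eln), the fibrillins (Fbn1, Fbn2), 5 fibulins (Fbln1, Fbln2, Fbln5, Efemp1, Efemp2) and 2 latent TGF-beta binding proteins (Ltbp1, Ltbp2). Members were every array probe annotated to these symbols, which gave 21 of the 45281 probes and covered 7 of the 10 genes. No probe was annotated to Fbn1, Fbn2 or Efemp2, so these genes were not analysed here. Of the 21 probes, 13 were detected on at least 3 of the 6 arrays and were tested, and they measured 6 genes.

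The arrays came from primary lung fibroblasts of 3 wild-type mice (wt, p38+/+) and 3 mice with both copies of a p38 knock-in allele (ki, p38ki/ki), with 1 Illumina bead array per mouse. All mice were 10 weeks old, and all cultures were grown in DMEM/F12 with 15% fetal calf serum and used at passage 1. The labels name neither the p38 gene that carries the allele, nor the change, nor the sex or strain of the mice.

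In an elastic fibre, elastin monomers are deposited on a scaffold of fibrillin microfibrils and crosslinked by lysyl oxidases. Fibulins bridge elastin, the crosslinking enzymes and the microfibrils. Latent TGF-beta binding proteins dock on the same microfibrils, where Ltbp1 holds TGF-beta in its latent form, while Ltbp2 does not bind latent TGF-beta. Fibroblasts, myofibroblasts and smooth muscle cells make most of these proteins in the lung.

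Levels below are log2 intensities after normalisation. Each difference is the ki mean minus the wt mean, given with its standard error (SE), from 3 mice of each genotype (n = 3). A probe was detected on an array when its signal passed the negative controls at a detection p under 0.05, and a gene changed when limma's adjusted p was under 0.05. Of the 6 measured genes 3 passed: Efemp1 and Ltbp2 were higher in ki and Ltbp1 was lower. Across all tested genes, each read by its brightest tested probe, 15.6% passed, 8.36% higher and 7.25% lower, and for 38.4% the ki and wt arrays did not overlap. The share in the set is not read against that figure, because Efemp1 and Ltbp2 reached the detection limit of 3 arrays through the ki arrays on which they were high.

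The promoters of these 3 genes are shown because they are the members that differed. Each line gives a window of 250 bases at an annotated RefSeq start (GRCm38.p6), 5′ to 3′ on the gene's strand, with capitals marking motif matches. The outer bound of the annotated gene falls inside the window for Efemp1 (28853154), Ltbp2 (84876558) and the first Ltbp1 start (75005480). Part of each of these windows therefore lies within the gene. Efemp1 lies on chromosome 11 (chr11:28852955-28853204, plus strand), Ltbp2 on chromosome 12 (chr12:84876492-84876741, minus strand), and Ltbp1 has 2 annotated starts on chromosome 17 (chr17:75005279-75005528 and chr17:75178531-75178780, plus strand).
Efemp1: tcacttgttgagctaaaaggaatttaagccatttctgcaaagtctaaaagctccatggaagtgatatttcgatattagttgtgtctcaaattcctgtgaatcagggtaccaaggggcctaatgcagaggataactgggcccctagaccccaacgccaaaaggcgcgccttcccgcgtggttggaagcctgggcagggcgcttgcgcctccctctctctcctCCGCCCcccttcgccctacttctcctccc
Ltbp2: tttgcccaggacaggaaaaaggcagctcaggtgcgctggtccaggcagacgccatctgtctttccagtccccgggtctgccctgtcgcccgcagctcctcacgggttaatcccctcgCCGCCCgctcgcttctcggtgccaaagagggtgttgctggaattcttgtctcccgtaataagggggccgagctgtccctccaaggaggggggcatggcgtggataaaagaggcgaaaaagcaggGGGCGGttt
Ltbp1, first start: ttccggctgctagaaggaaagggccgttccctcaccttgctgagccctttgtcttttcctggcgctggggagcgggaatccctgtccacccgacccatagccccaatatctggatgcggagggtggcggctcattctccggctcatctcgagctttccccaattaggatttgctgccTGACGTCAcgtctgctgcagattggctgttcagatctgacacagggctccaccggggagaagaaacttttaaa
Ltbp1, second start: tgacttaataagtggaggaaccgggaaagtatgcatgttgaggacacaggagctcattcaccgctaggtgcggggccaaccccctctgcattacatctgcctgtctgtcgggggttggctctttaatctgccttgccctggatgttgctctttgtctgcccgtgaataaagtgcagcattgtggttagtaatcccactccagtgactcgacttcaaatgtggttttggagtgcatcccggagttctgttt
Motifs searched on both strands were AP-1 (TGAGTCA), the cyclic AMP response element (TGACGTCA), the TATA box (TATAAA) and the GC box (GGGCGG), none of which overlap in these windows. They occur in 4.46%, 1.55%, 12.4% and 32.7% of 32851 such windows. The window at the first Ltbp1 start holds the cyclic AMP response element, which begins 73 bases from the window's 3′ end. Efemp1 has 1 GC box match, which begins 29 bases from the window's 3′ end. Ltbp2 has 2, which begin 133 and 9 bases from that end. The Efemp1 match and the Ltbp2 match at 9 bases lie in the part of the window within the annotated gene. These are letter matches only, and the probes were not assigned to a start.

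Efemp1, which encodes fibulin-3, a fibulin of elastic and basement membrane matrix, was at background in wt and above it in ki. Its only probe gave background-subtracted signals of 31.0, 5.3 and 13.8 on wt arrays 1, 2 and 3, and of 55.7, 50.9 and 62.8 on ki arrays 1, 2 and 3. No wt array detected it (detection p 0.0919 to 0.404), all ki arrays did (0.00534 to 0.0128), and the lowest ki signal lay above the highest wt signal. On the normalised scale the level was 5.35 ± 0.22 in wt and 6.23 ± 0.10 in ki (SD). The transcript was therefore at least 1.41-fold higher in ki, measured against the lowest detected level on the wt arrays. The fitted difference was 0.88 (SE 0.12, 95% interval 0.59 to 1.18, adjusted p = 0.00568). It passed in all 19 alternative processings that gave a value, with fitted differences from 0.55 to 1.67 that depend on how the background is treated. The setting that required detection at p under 0.01 on all 6 arrays did not test it. Where arrays were left out, the tested probes were still those chosen on all 6 arrays, and Efemp1 was among them through the ki arrays alone.

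Ltbp2, a microfibril component, was the other member that was higher in ki, again near the detection limit. One of its 2 probes gave signals of 40.5, 28.9 and 23.0 on the wt arrays and 55.5, 67.5 and 63.4 on the ki arrays. It was detected on 1 wt array and on all 3 ki arrays, and the groups did not overlap. The normalised level was 5.62 ± 0.13 in wt and 6.35 ± 0.31 in ki (SD), a difference of 0.73 (SE 0.16, 95% interval 0.35 to 1.12, adjusted p = 0.0282). With only 1 wt array above background the size is uncertain, and the fitted difference ran from 0.48 to 1.27 over the alternatives. The second Ltbp2 probe was detected on no array, so the difference rests on 1 probe. It missed the threshold without wt replicate 1 (adjusted p = 0.0633), 2 (0.0867) or 3 (0.0919).

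**Figure D1:**
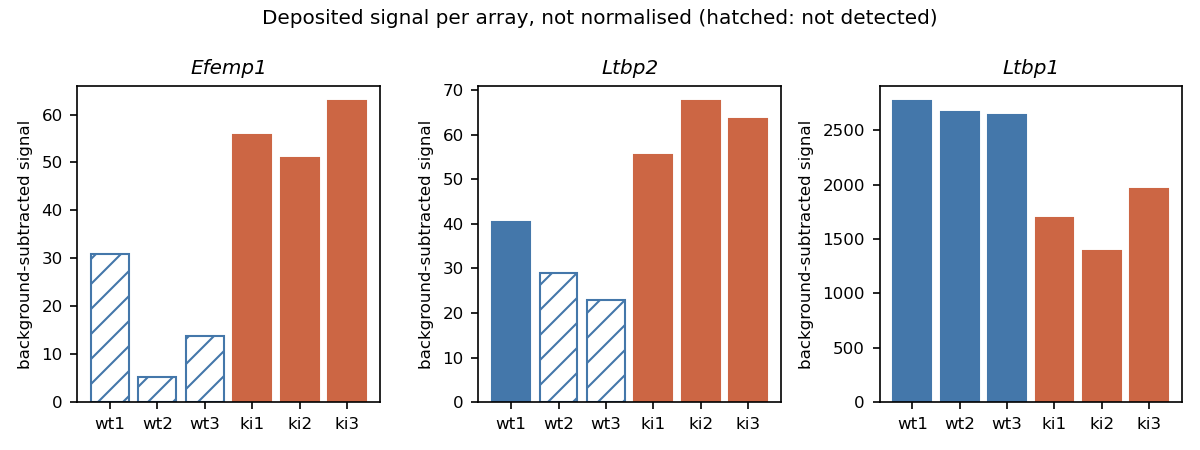
Deposited background-subtracted signal (y axis, linear, from 0) of the Efemp1, Ltbp2 and Ltbp1 probes that passed the threshold, on each of the 6 arrays (x axis; blue wt, orange ki; hatched bars were not detected). All 3 ki bars stand above all wt bars for Efemp1 and Ltbp2 and below them for Ltbp1, and the first 2 probes stay under 70 units of signal, against 1388.0 to 2766.5 for Ltbp1.

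Ltbp1, which ties latent TGF-beta to the matrix, was lower in ki at a bright probe. Its signals were 2766.5, 2663.5 and 2638.6 on the wt arrays and 1695.1, 1388.0 and 1961.6 on the ki arrays. Divided by each array's mean signal, which varied between arrays, they were 3.27, 3.62 and 3.70 in wt and 2.48, 2.67 and 2.82 in ki. Every ki array was below every wt array on both scales. The normalised level fell from 11.26 ± 0.092 to 10.85 ± 0.11 (SD), a difference of -0.40 (SE 0.091, 95% interval -0.62 to -0.19, adjusted p = 0.0311), or 1.32-fold. The direction held in all 20 alternatives, but the filter, moderation, block, adjustment and threshold settings leave the difference itself unchanged. Its sign could not turn under those. The call was lost without wt replicate 2 (adjusted p = 0.104) or 3 (0.0972) and without ki replicate 1 (0.0845), 2 (0.0641) or 3 (0.0532). It was also lost with no detection filter, where all probes on the array are tested (adjusted p = 0.0775), which left 2 member genes higher and 0 lower by limma.

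Ltbp1 had 7 probes on the array, and they did not all measure it. Of the other 6, 5 were detected on no array. The last was detected on 2 wt arrays and 1 ki array, with signals of 54.6, 44.1 and 23.5 in wt and 20.7, 52.3 and 18.0 in ki. These overlapped, and the difference was -0.10 (SE 0.29, adjusted p = 0.856). The bright probe and 1 undetected probe carry the same transcript accession in the annotation, and probe positions are not used here, so no isoform is assigned.

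Elastin itself did not pass the threshold. The Eln probe that was detected gave signals of 7615.1, 5597.8 and 5549.1 on the wt arrays and 6607.8, 4640.8 and 6164.7 on the ki arrays, which overlap. Normalised levels were 12.58, 12.36 and 12.38 in wt and 12.72, 12.66 and 12.62 in ki, with no overlap. The difference was 0.23 (SE 0.088, unadjusted 95% interval 0.015 to 0.44, adjusted p = 0.147). Its sign depends on the scaling: with each array scaled to its median over all probes it was -0.095, where the median of all tested genes was itself at -0.22 (0.007 as reported). With a variance trend and robust moderation it passed (adjusted p = 0.0166). A second Eln probe reached a signal of 43.0 on wt array 1 and was undetected on the other 5 arrays.

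Fibulin-1 (Fbln1), a fibulin that binds fibronectin and elastin, was measured by 5 probes detected on all arrays. All 5 had lower means in ki, with differences from -0.47 to -0.05. By limma 0 passed, and 1 had an unadjusted p under 0.05. The brightest probe had signals of 4980.6, 3865.8 and 4323.0 in wt and 3707.4, 2873.9 and 3778.2 in ki. Its normalised levels overlapped, at 11.95 ± 0.088 in wt and 11.90 ± 0.046 in ki (SD; difference -0.050, SE 0.079, adjusted p = 0.726). The probe with the largest difference had normalised levels of 7.84, 7.75 and 7.73 in wt and 7.42, 7.48 and 7.03 in ki, which do not overlap. Its difference of -0.47 (SE 0.13, adjusted p = 0.061) missed the threshold and passed in 4 of 19 alternatives. The size of the difference varied between the probes of this gene, which was not tested, and the dimmest probe turned to 0.057 without ki replicate 3.

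Fibulin-2 (Fbln2), a partner of elastin and fibrillin in vessel walls and basement membranes, had a probe with signals of 43793.7, 36537.7 and 34769.3 in wt and 36337.5, 28118.7 and 37733.8 in ki. The normalised level was 15.09 ± 0.029 in wt and 15.19 ± 0.043 in ki (SD), a difference of 0.092 (SE 0.070, 95% interval -0.075 to 0.26, adjusted p = 0.437). The groups did not overlap on that scale. The other 2 probes differed by 0.080 and -0.083, with overlapping arrays and adjusted p of 0.674 and 0.724. None of the 3 probes passed in any alternative. Scaling to each array's median over all probes, which moved the median of all genes from 0.007 to -0.22, put the brightest probe at -0.16 and the second at -0.19. The second also turned to -0.017 without ki replicate 3, and the third to 0.033 without ki replicate 2.

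Fibulin-5 (Fbln5), which recruits elastin to microfibrils and is needed for elastic fibres in mice, was undetected. Its 1 probe gave signals of 3.6, -16.5 and -13.8 in wt and 2.5, -12.0 and 14.6 in ki, with detection p of 0.296 to 0.79. No difference was tested. A probe without signal does not show that the transcript is absent. Over the whole set 7 probes were undetected on every array, with signals of -47.4 to 17.0, all 7 below 0 on at least 1 array.

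**Figure D2:**
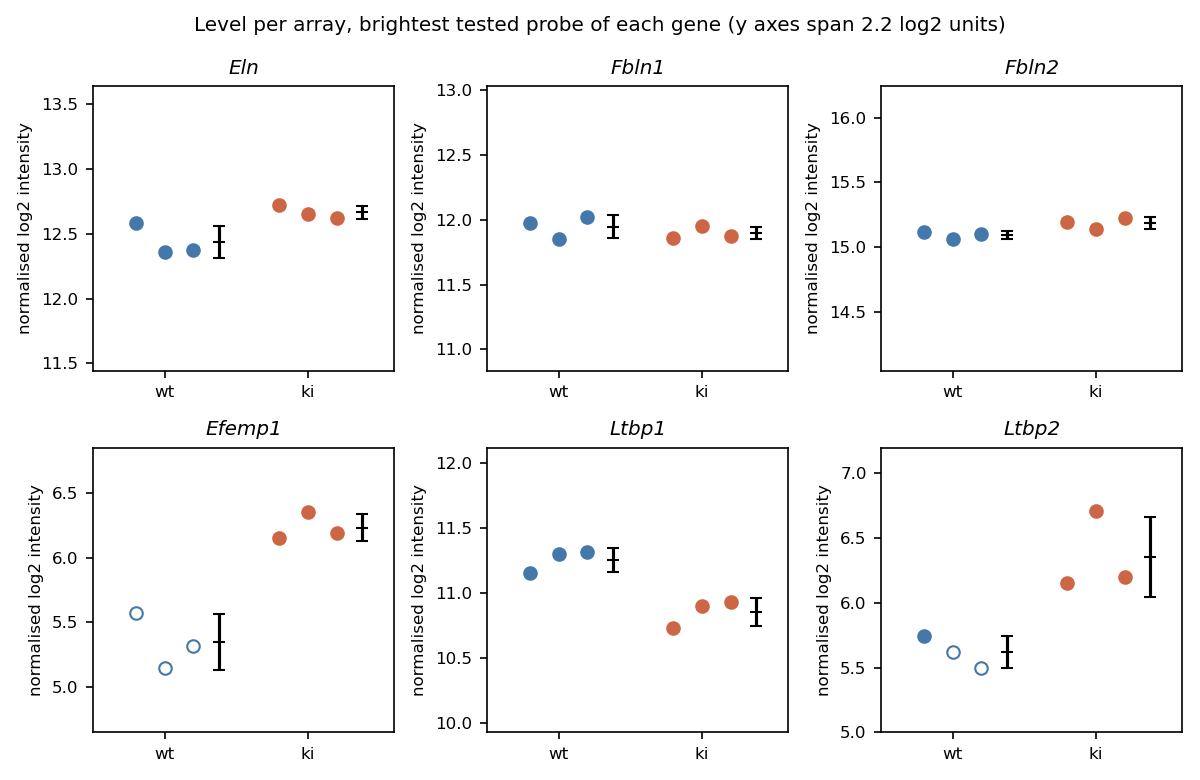
Normalised log2 intensity (y axis, each panel spanning 2.2 log2 units) on each array of the brightest tested probe of the 6 measured genes, by genotype (x axis; open symbols were not detected; black bars are mean ± SD, n = 3). Efemp1 and Ltbp2 are higher and Ltbp1 is lower in ki with no overlap. Eln and Fbln2 do not overlap either and differ by 0.23 and 0.092, while Fbln1 overlaps.

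Of the 13 tested probes 3 passed, and for 8 the ki arrays lay wholly on one side of the wt arrays. Among all 18249 tested probes 14.3% passed, 7.21% higher and 7.06% lower, and 35.5% did not overlap. Of the 13, 8 had a lower mean in ki, of which 5 were Fbln1 probes and 2 were Ltbp1 probes, and 5 had a higher one. Read by the brightest probe of each gene, with Efemp1 and Ltbp2 included, the median difference was 0.159. It is not read against the 0.007 of all tested genes, because Efemp1 and Ltbp2 were tested through the ki arrays on which they were high. The other measured genes differed by 0.226 (Eln), 0.092 (Fbln2), -0.05 (Fbln1) and -0.403 (Ltbp1). The residual SD of the genes' brightest probes ran from 0.0368 to 0.234 on the log2 scale, around a median of 0.119 for all tested genes.

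**Figure D3:**
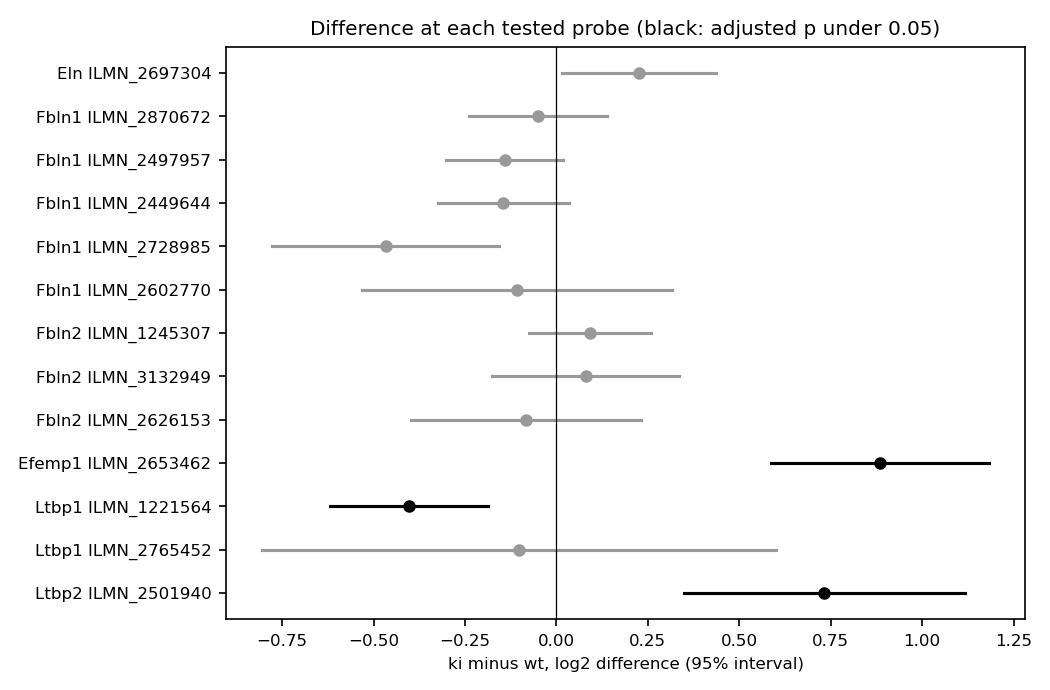
Difference ki minus wt on the log2 scale (x axis) with its unadjusted 95% interval at each of the 13 tested probes (y axis), black where the adjusted p was under 0.05. The 5 Fbln1 probes lie between -0.47 and -0.05, and Efemp1, Ltbp2 and 1 Ltbp1 probe are the 3 black points.

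The cultures differed in other cell markers on the same arrays, where 8.36% of all tested genes were higher in ki and 7.25% lower. Mesothelial markers were higher in ki for 10 of 11 tested genes, with a summed level (linear normalised intensities added over the tested genes) of 5418 to 5783 in wt and 11999 to 12653 in ki. Upk3b and Upk1b, uroplakins of mesothelium, had the smallest p (differences 2.90 and 2.88), and the gene that fell was Igfbp5. Of the 11, 2 (Gpm6a and Krt19) were undetected on all wt arrays, so they were tested only through the ki arrays where they were high. Calb2 was detected on fewer than 3 arrays, and no probe was annotated to Wt1 or Muc16. Epithelial markers were higher for 4 of 7 (summed 1518 to 1590 in wt, 5423 to 5506 in ki), led by the claudins Cldn4 and Cldn3, while the defining markers Epcam, Sftpc, Sftpb, Sftpa1, Krt5, Krt14 and Foxj1 were detected on fewer than 3 arrays. Scgb1a1, Nkx2-1 and Cldn18 were tested and did not pass (limma adjusted p = 0.14, 0.186 and 0.608). Neutrophil markers were lower for 8 of 9 (summed 12715 to 13414 in wt, 3039 to 3511 in ki), with the smallest p for S100a9 and the granule protease Ctsg, and 4 of the 9 were undetected on all ki arrays. Macrophage markers were detected for 11 of 11, with 1 higher and 3 lower (summed 135616 to 139404 in wt, 125814 to 133272 in ki; smallest p for C1qc and Adgre1). All 12 fibroblast markers were detected in both genotypes, with 1 higher and 5 lower (summed 112043 to 118524 in wt, 97826 to 102134 in ki), led by Col1a2, which fell 2.33-fold, and Pdpn. Smooth muscle and pericyte markers had 2 of 9 higher and 2 lower (Des and Actg2 first; summed 79359 to 83381 and 77973 to 80671). Acta2 (mean level 15.997 in wt, 16.031 in ki) made up most of that sum. Lyz2 (15.965 in wt, 16.013 in ki) was the largest part of the macrophage sum. These 2 sums therefore say little about the other genes in them. Endothelial markers had 0 of 9 past the threshold by limma and 4 at an unadjusted p under 0.05 (smallest p for Emcn and Cdh5; summed 5547 to 5944 and 4854 to 5269). In such bulk cultures fewer cells of a type and less RNA per cell cannot be told apart, and the part of these markers in the differences of Efemp1, Ltbp1 and Ltbp2 was not tested.

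Partners in fibre assembly moved in both directions. Of 20 measured genes 3 were higher in ki (Thsd4, Atp7a and Adamtsl4) and 4 lower (Adamtsl2, Mfap5, Lox and Adamts6), and the median difference was -0.064, against 0.007 for all genes. Across all tested genes 15.6% passed, 8.36% higher and 7.25% lower. Thsd4, also called Adamtsl6, which promotes fibrillin-1 microfibril assembly in mice, rose 4.89-fold, from 6.55 ± 0.23 to 8.84 ± 0.44 (SD; difference 2.29, SE 0.23, adjusted p = 0.0016), and both its probes passed. Adamtsl2, a secreted glycoprotein that binds fibrillin and Ltbp1, fell 2.48-fold, from 7.34 ± 0.11 to 6.03 ± 0.042 (SD; -1.31, SE 0.084, adjusted p = 0.00029). Its signals on the ki arrays, 49.4, 40 and 52.1, were near the detection limit, so the size is uncertain. The difference ran from -1.63 to -0.98 over the alternatives. Thsd4 and Adamtsl2 passed in all alternatives that gave a value. Mfap5, a microfibril-associated glycoprotein, fell 1.46-fold (-0.54, SE 0.072, adjusted p = 0.00448) and passed with any single array left out.

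The copper transporter Atp7a, which supplies lysyl oxidases with their metal, was 1.39-fold higher (adjusted p = 0.027), and the crosslinking enzyme Lox was 1.29-fold lower (-0.37, SE 0.085, adjusted p = 0.0335). Adamtsl4, which binds fibrillin-1, was 1.23-fold higher (adjusted p = 0.0448) and the protease Adamts6 2.03-fold lower (adjusted p = 0.049). The calls of these 4 genes were lost when most single arrays were dropped (highest adjusted p 0.0914, 0.108, 0.139 and 0.133, in this order). Adamtsl4 lost its call without any one of the arrays. Atp7a kept its call only without ki replicate 1 (adjusted p = 0.039), and Lox (0.0379) and Adamts6 (0.0279) only without ki replicate 3. Adamts6 passed in 6 of 19 alternatives. With arrays scaled to their medians over all probes, Adamtsl4 stood at 0.081 (adjusted p = 0.775) and Atp7a at 0.274 (adjusted p = 0.297). Lox, Adamtsl4 and Adamts6 are named to complete the counts, a choice made after their values were seen. Among the 13 that did not pass were the lysyl oxidase Loxl1 (0.070, adjusted p = 0.542), the microfibril glycoprotein Mfap2 (-0.060, adjusted p = 0.625) and the remaining binding proteins Ltbp3 (-0.093) and Ltbp4 (-0.15).

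Enzymes that can degrade elastin, with their inhibitors, also went both ways, with 2 of 15 higher (Mmp12 and Timp3) and 4 lower (Ctsg, Elane, Ctsl and Timp1), and a median of 0.049. The shares over all tested genes were 8.36% higher and 7.25% lower. Macrophage elastase, Mmp12, rose 4.24-fold, from 9.45 ± 0.092 to 11.53 ± 0.18 (SD; 2.08, SE 0.11, adjusted p = 0.000137). Neutrophil elastase, Elane, fell 3.64-fold (-1.86, SE 0.10, adjusted p = 0.000168), and cathepsin G, Ctsg, was undetected on all ki arrays and at least 3.87-fold lower (adjusted p = 3.25e-05). Both belong to the neutrophil markers that were lower on the same arrays. The Elane signals on the ki arrays, 44.3, 34.2 and 54.4, were near the detection limit. Its difference ran from -2.27 to -1.44 over the alternatives. The metalloproteinase inhibitor Timp3, which is bound to matrix, rose 1.71-fold at its brightest probe (0.78, SE 0.078, adjusted p = 0.00161), although 1 of its 3 probes differed by -0.20. Ctsl and Timp1, named to complete the count after their values were seen, were lower by -0.77 and -0.38 (adjusted p = 0.00679 and 0.0134), and Timp1 missed the threshold without wt replicate 1 (0.0552) or 2 (0.0545).

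Among integrin and elastin receptors 1 of 7 was higher and 2 were lower, with a median of -0.12. For these and for the ligands below, the shares over all tested genes were 8.36% higher and 7.25% lower. Itgb6, whose protein pairs with the alpha v subunit to activate latent TGF-beta in epithelia, rose 2.36-fold (1.24, SE 0.15, adjusted p = 0.00347). On the same arrays 4 of 7 tested epithelial markers were higher, and a link to Itgb6 was not tested. Itga5 and Itgb1, the fibronectin receptor chains, were 1.51-fold and 1.35-fold lower (adjusted p = 0.0208 and 0.0292), and each lost its call when some single arrays were dropped (highest adjusted p 0.0686 and 0.0933). Of the TGF-beta family ligands, a family with several members that microfibrils hold in the matrix, 2 of 6 measured were higher and 2 lower (median -0.078). Gdf10 fell 4.81-fold (-2.27, SE 0.10, adjusted p = 7.61e-05) and Bmp4 rose 1.69-fold (0.75, SE 0.073, adjusted p = 0.00133). Tgfb2 was 1.63-fold higher and Inhba, an activin chain, 1.74-fold lower (adjusted p = 0.0253 and 0.0303), and both lost their calls when some single arrays were dropped (highest adjusted p 0.0851 and 0.0869). Scaled to each array's median, Bmp4 was at 0.46 (adjusted p = 0.0722) and Tgfb2 at 0.49 (adjusted p = 0.0596). Tgfb1, the ligand most often studied with Ltbp1, differed by 0.059 (adjusted p = 0.791).

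**Figure D4:**
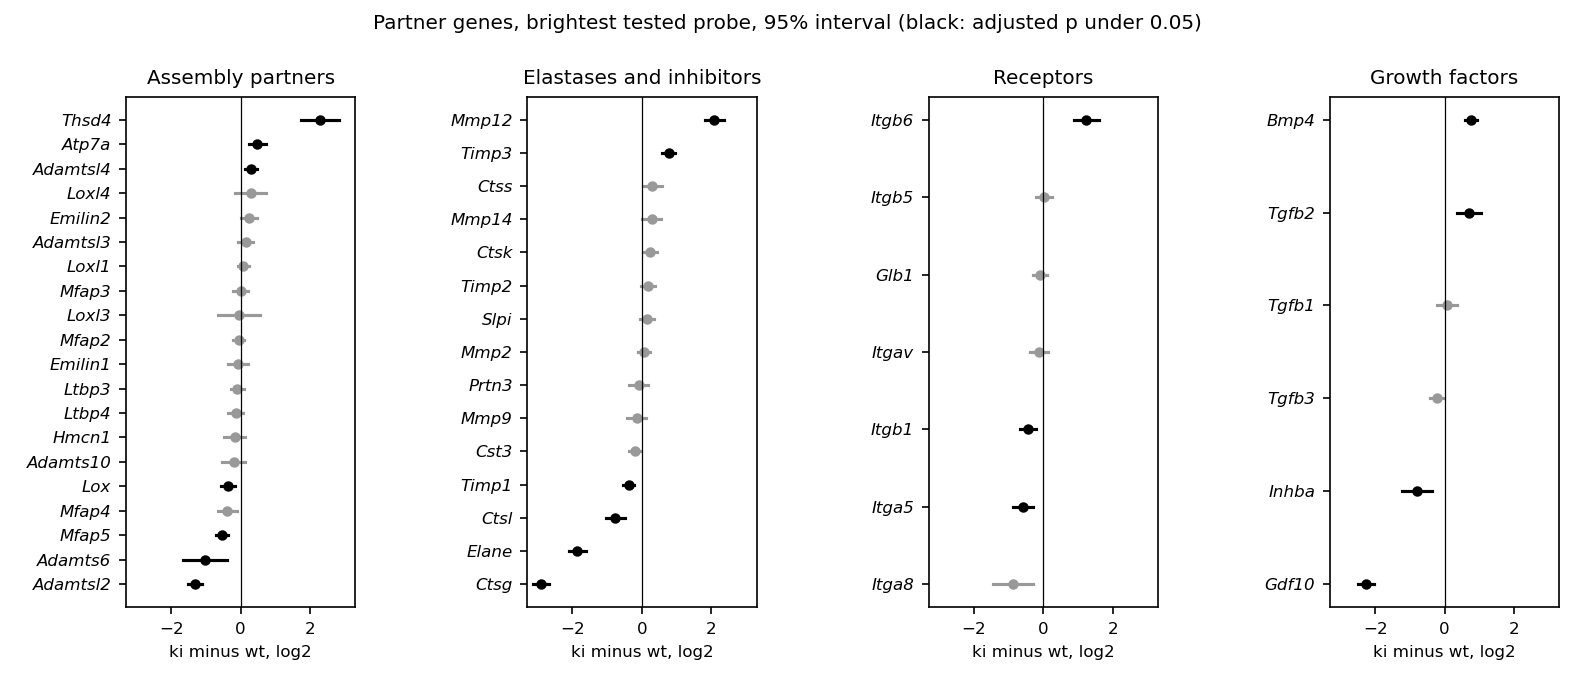
Difference ki minus wt on the log2 scale (x axis) with unadjusted 95% intervals for the measured genes of 4 partner lists (y axis), black where the adjusted p was under 0.05. Thsd4, Mmp12 and Itgb6 stand farthest to the right of their panels and Adamtsl2, Ctsg and Gdf10 farthest to the left; Ctsg was undetected in ki, so its point is a fitted value and not a bound.

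The 3 members that passed were also fitted with arrays left out, always on the probes chosen with all 6 arrays. Efemp1 stayed past the threshold with each single array left out (adjusted p 0.00776 to 0.0261). It was detected on the 3 ki arrays only, so without any of these it would miss the detection limit of 3 arrays. The fits without a ki array therefore cannot show that its call holds under that limit. For Ltbp2 the range was 0.0275 to 0.0919 and for Ltbp1 0.0496 to 0.104. With wt replicate 1 and ki replicate 2 both dropped, the arrays of highest and lowest mean signal, Efemp1 passed (adjusted p = 0.0241), Ltbp2 stood at 0.05 and Ltbp1 at 0.0966, each with its direction kept. Neither Efemp1 nor Ltbp2 was detected on 3 of the arrays that were left.

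**Figure D5:**
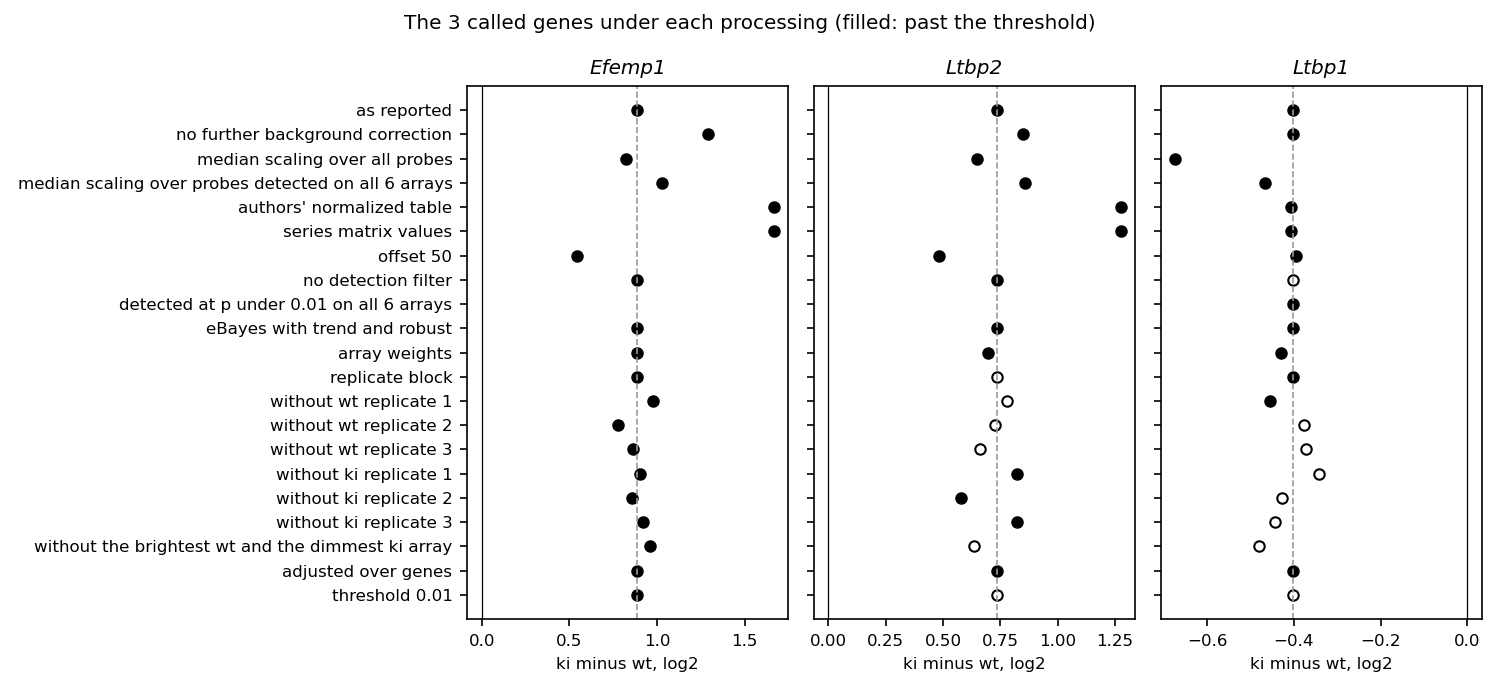
Difference ki minus wt on the log2 scale (x axis) of the Efemp1, Ltbp2 and Ltbp1 probes under each processing (y axis), with filled symbols past the threshold and the dashed line at the reported value. Efemp1 runs from 0.55 to 1.67, Ltbp2 from 0.48 to 1.27 and Ltbp1 from -0.67 to -0.34, with no change of sign. The filter, moderation, block, adjustment and threshold settings leave the difference at its reported value.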

How the data were processed

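The 6 arrays were grouped by genotype from the sample titles. The deposited intensity values are background-subtracted, as negative values on 28.59% to 32.02% of probes per array show, and were not normalised between arrays, per the file headers. The deposited detection p-value places each signal among the negative controls. The authors also deposited normalised intensities, equal to the series values in 100% of cells. The scanner software and the methods behind both steps are not given in the sources used for this report.

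Background was modelled by normexp in limma 3.58.1 (R 4.3.3), taking control parameters from the detection p-values. An offset of 16 was added before quantile normalisation and the log2 step. Probes detected on at least 3 arrays (18249) were fitted with lmFit and eBayes, and p-values were adjusted over all of them (Benjamini-Hochberg). A gene was read by its brightest tested probe (10412 genes). Symbols came from the platform annotation, updated by gene identifier. A single symbol was found for 34885 probes, several for 18 and none for 10378. Mean signal was 712.3 to 846.7 on wt and 519.4 to 694.7 on ki arrays, and 38.87% to 40.92% of probes were detected. The number of arrays limits the precision. On simulated data over 18249 probes, the fit recovered 72.6% of differences of 1 and 26% of 0.5 on the log2 scale. Only a small share of the simulated probes was changed, against 14.3% of probes that passed in the data. The adjusted threshold was therefore stricter in the simulation, and these percentages are not the recovery in the data.

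Members, the 4 partner lists and 7 marker lists (142 genes) were chosen with earlier results of these data known. Named were all members, up to 4 passing genes per partner list and 2 per marker list by smallest p, and genes completing a small count. Promoter letters are from RefSeq (GRCm38.p6), which matched 8 of 10 members. Replicate numbers were not used as pairs in the main fit. Deviations of same-numbered arrays from their group means correlated at 0.004, 0.014 and 0.105, and those of different-numbered arrays at -0.116 to 0.109. These values cannot show whether the cultures were handled in pairs, and the labels do not say. The alternatives numbered 20, covering background, scaling, offset, filter, moderation, weights, block, left-out arrays, adjustment and threshold. The authors' normalised values and the series values, which are equal, were counted as separate alternatives. Figures used matplotlib 3.10.9 in Python 3.11.15.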

Additional observations from a re-analysis of the deposited data

How the results depend on the processing

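Over the 13 member probes and the 20 partner genes that passed, 533 values kept their sign and side of the threshold, 97 kept the sign but lost the call, 5 gained it and 10 changed sign. The filter, moderation, block, adjustment and threshold settings could not change a sign. Efemp1 kept its call in all 19 alternatives that gave a value. Sign changes occurred at probes that had not passed. Scaling to each array's median over all probes gave Eln -0.095 and Fbln2 -0.164 and -0.189 at 2 probes, and moved the median of all genes from 0.007 to -0.217. Scaling over probes detected on all arrays gave the dim Ltbp1 probe 0.021. Leaving out 1 array at a time moved that probe between -0.456 and 0.106 (0.029 without ki replicate 1), the dimmest Fbln1 probe between -0.241 and 0.057, and 2 Fbln2 probes between -0.017 and 0.169 and between -0.161 and 0.033. The last was at 0.028 with wt replicate 1 and ki replicate 2 both dropped. The cause of the turns under the other settings was not tested.

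All probes passing numbered 2604 as reported (1315 higher, 1289 lower), 1730 with no detection filter, where more probes are tested, 1500 to 1849 with 1 array left out (fewer samples), 791 with wt replicate 1 and ki replicate 2 both dropped, 1687 over genes (fewer features) and 1056 at a threshold of 0.01. Scaling to each array's median gave 596 higher and 2399 lower. Member genes passing numbered 3 as reported, 1 when detection at p under 0.01 on all 6 arrays was required (Efemp1 and Ltbp2 are then not tested), 1 to 2 with 1 array left out, 1 with that pair dropped and 1 at 0.01. Assembly partners numbered 7, against 3 with no filter, 3 with the replicate block, 3 to 5 with 1 array left out, 2 with the pair dropped and 3 at 0.01. Elastin-degrading enzymes and inhibitors numbered 6, and 11 with trend and robust moderation. Receptors numbered 3, against 1 to 3 with 1 array left out, 0 with the pair dropped (limma; 4 at an unadjusted p under 0.05) and 1 at 0.01. Family ligands numbered 4, against 2 with median scaling, 2 to 4 with 1 array left out, 2 with the pair dropped and 2 at 0.01. With the replicate block 1789 probes and 2 member genes passed, Ltbp2 standing at 0.0526, and not every array correlated best with its own number. Signals near background limit Efemp1 and Ltbp2, where the offset and background step set the size of the difference.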
